A study of Mus musculus with 96 samples.

Results

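The genes described are 6 noncoding hosts of small nucleolar RNAs, Gas5, Snhg1, Snhg3, Snhg6, Snhg8 and Snhg12, out of 23955 genes in the expression table, together with their 23 splicing events out of 80855. They were chosen by name, with levels and splicing values from earlier results of these data in view. Each was measured in 96 single cells of ThPOK-/- C57BL/6 mice, which lack the transcription factor ThPOK, the product of Zbtb7b. Marrow was enriched for CD117 on beads, granulocyte-monocyte progenitors (GMP) were sorted from it, and single cells were separated with the Fluidigm C1 system. Sample titles call the cells modified GMP without saying what was modified. The authors' annotation puts 12 cells in a state named proNeu-1, 31 in IG2 and 26 in Multi-Lin-1, and 27 cells are without a state. How the states were made is not given, and since they may rest on the same expression values, differences between them are a description. No animal is named, so the cells form 1 sample of 1 genotype. Wild-type cells also belong to the series, but no label maps a column to them and they were not analysed here. No test was made, and each SD is over cells.

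Small nucleolar RNAs guide chemical modification of ribosomal RNA, box C/D RNAs (Snord genes) for methylation of the ribose and box H/ACA RNAs (Snora genes) for pseudouridine. In mammals they are mostly cut out of the introns of a host gene after splicing. Some hosts encode proteins of the translation machinery, and others, such as the 6 described here, yield a spliced RNA with no known protein. Many host transcripts begin with a pyrimidine tract at the start site, as ribosomal protein mRNAs do, and Gas5, first found as a transcript that accumulates in growth-arrested mouse cells, is a known substrate of nonsense-mediated decay, the pathway that degrades mRNAs with early stop codons. The spliced host RNA and the intronic small RNA therefore leave the same primary transcript and have separate fates.

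The GENCODE M21 annotation (GRCm38) places 25 small nucleolar RNA genes inside these 6 hosts. Gas5 (ENSMUSG00000053332, chr1:161034422-161038539, plus strand) holds 9, among them Snord78, Snord80 and Snord47 and 1 that GENCODE names Mir5117 but types as a small nucleolar RNA. Snhg1 (ENSMUSG00000108414, chr19:8723475-8726443, plus strand) holds 8, including Snord22. Snhg12 (ENSMUSG00000086290, chr4:132308623-132311024, plus strand) holds 4, namely Snora16a, Snora44, Snora61 and Snord99. Snhg3 (ENSMUSG00000085241, chr4:132348014-132353686, minus strand) holds Snora73b and Snora73a, the pair known as U17. Snhg6 (ENSMUSG00000098234, chr1:9941959-9944118, minus strand) holds Snord87, and Snhg8 (ENSMUSG00000104960, chr3:123507552-123508404, minus strand) holds Snora24. Exon number ran with the number of guests, from 12 exons in the Gas5 transcript with most exons and 10 in Snhg1, through 5 in Snhg12 and 4 each in Snhg3 and Snhg6, to 3 in Snhg8.

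**Figure D1:**
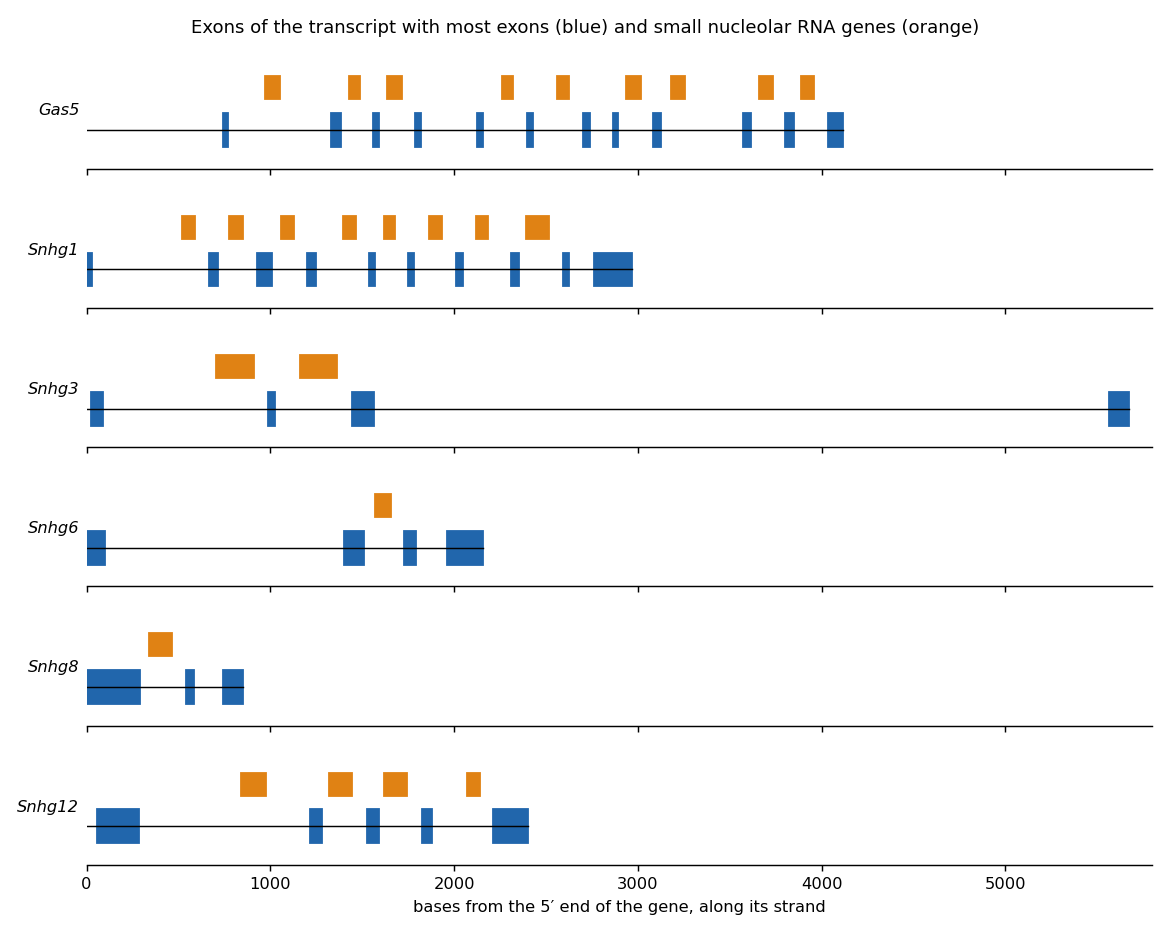
Each line is 1 host gene drawn to scale along its strand, with distance from its 5′ end in bases on the x axis, the exons of its annotated transcript with most exons in blue, and the small nucleolar RNA genes inside it in orange. Gas5 carries 9 of them and Snhg1 carries 8, mostly 1 to an intron, while Snhg6 and Snhg8 carry 1 each.

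The start sites are shown because a pyrimidine tract there is the feature for which these hosts are known. RefSeq (GRCm38.p6) start sites matched 5 of the 6 genes by symbol, with 2 entries for Gas5 and none for Snhg6. Each line gives 50 bases before the start and 40 from the start base on, 5′ to 3′, with capitals for a run that opens with C, goes on with at least 4 C or T, and begins between 5 bases before and 5 after the start.
Gas5, second start (chr1:161035116-161035205, plus strand): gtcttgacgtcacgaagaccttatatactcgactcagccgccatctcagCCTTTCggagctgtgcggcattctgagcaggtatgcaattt
Snhg8 (chr3:123508297-123508386, minus strand): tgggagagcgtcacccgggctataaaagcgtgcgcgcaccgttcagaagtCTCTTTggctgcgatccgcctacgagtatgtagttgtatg
Snhg12 (chr4:132308628-132308717, plus strand): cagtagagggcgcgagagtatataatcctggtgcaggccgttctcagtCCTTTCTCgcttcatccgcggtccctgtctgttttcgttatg
Snhg3 (chr4:132353647-132353736, minus strand): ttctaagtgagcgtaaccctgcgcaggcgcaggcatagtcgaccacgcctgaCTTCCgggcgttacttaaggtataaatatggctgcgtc
Snhg1 (chr19:8723437-8723526, plus strand): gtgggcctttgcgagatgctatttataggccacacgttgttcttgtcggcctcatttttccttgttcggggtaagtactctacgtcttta

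Such a run was found at 4 of the 6 host entries, on the sense strand. It was found at 41.3% of 75 ribosomal protein gene entries and at 18.3% of all 32851 promoter entries. With the run required to cover the annotated start base itself as its C, 2 of 6 host entries held it (Gas5, second start, and Snhg8), against 2.51% of all entries. The letters TATAA, looked for on both strands between 45 and 15 bases before the start, were present at 4 of 6 host entries (the second Gas5 start, Snhg1, Snhg8 and Snhg12) and at 4.87% of all entries. The first Gas5 start, at chr1:161034601, held neither. These are matches of letters in a window of annotated starts, and no start site was measured in these cells.

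Before the levels, the cells themselves were checked. TPM is a level scaled for transcript length and to a fixed sum per cell. Genes reaching a TPM of 1, whose number stands in for depth because reads per cell are not given, had medians of 4127.5 in proNeu-1, 3940 in IG2, 2613 in cells without a state and 2950 in Multi-Lin-1, and a range of 1019 to 5203. Zbtb7b reached a TPM of 1 in 2 of 96 cells and at most 2.12. Of the primary granule genes that mark GMP, 5 of 6 reached it in at least 50% of cells, with Mpo in all 96, and their summed share of the TPM had medians of 7.26% in proNeu-1, 3.83% in IG2, 0.0755% in cells without a state and 0.142% in Multi-Lin-1. Other lists with genes in at least 50% of cells were stem and multipotent (4 of 6), mast cell and basophil (4 of 6), erythroid and megakaryocyte (1 of 6) and T and NK (1 of 4, Nkg7 in 93 cells), with 0 of 4 for monocyte and B lymphoid genes. Below that share, Cd79b of the B lymphoid list reached a TPM of 1 in 25 cells and Cd3d of the T and NK list in 8. The other 3 B lymphoid genes, among them Ebf1, were under it in every cell, as were Cd3e and Il7r. Of the monocyte list, Ly6c2 reached it in 42 cells, with all 12 proNeu-1 cells among them. No pair of cells was identical, with a highest Pearson r of 0.685.

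Gas5 was the most abundant host and the only one of the 6 found in every cell. Detection means a TPM of 1 or more, and all levels are log2(TPM + 1). Gas5 was detected in 96 of 96 cells (Clopper-Pearson 95% interval 96.2% to 100%), at a mean of 7.62 ± 1.5, and 94 cells had a TPM of 30 or more. By mean level it stood at percentile 98.9 of all genes. The other hosts were at percentiles from 85 to 95.4, but each was under the detection threshold in many cells.

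Snhg3 and Snhg6 were each detected in 62 cells (64.6%, interval 54.2% to 74.1%), Snhg8 in 64 (66.7%, 56.3% to 76%), Snhg1 in 59 (61.5%, 51% to 71.2%) and Snhg12 in 31 (32.3%, 23.1% to 42.6%). Intervals cover the counting of cells in this 1 sample only. Thus 5 of the 6 hosts reached the threshold in at least 50% of cells, where 9.48% of all genes did. Mean levels over all cells were 4.31 ± 3.81 for Snhg3, 4.13 ± 3.83 for Snhg1, 3.82 ± 3.27 for Snhg6, 3.27 ± 2.85 for Snhg8 and 1.76 ± 2.87 for Snhg12.

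In the order of levels, Gas5 lay 3.30 above Snhg3, more than the SD of Gas5 but less than that of Snhg3, and was the higher of both in 70 of 96 cells. The next neighbours were closer than their spread, with Snhg3 above Snhg1 by 0.18, Snhg1 above Snhg6 by 0.31 and Snhg6 above Snhg8 by 0.56. The step from Snhg8 to Snhg12, 1.5, was also smaller than either SD, yet Snhg8 was the higher in 51 of 96 cells, with neither detected in 22. An SD over cells describes spread and not the precision of a mean, so it does not decide the order. The order was not tested.

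Where they were detected, the 5 hosts other than Gas5 were not scarce. Levels in detecting cells averaged 6.72 ± 2.51 for Snhg1, 6.68 ± 2.55 for Snhg3, 5.92 ± 2.02 for Snhg6, 5.42 ± 2.38 for Snhg12 and 4.82 ± 2.19 for Snhg8. Snhg1 was listed at exactly 0 in 37 cells, Snhg3 and Snhg6 in 34 each, Snhg8 in 27 and Snhg12 in 64. A 0 here is a value as listed and not shown to be absence, since even Tbp, the TATA-binding protein gene needed for transcription in all cells, fell short of a TPM of 1 in 66 of 96 cells.

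The number of hosts detected in a cell ran from 1 to 6. All 6 were found in 14 cells, 5 in 20, 4 in 29, 3 in 16, 2 in 9 and only Gas5 in 8. At least 4 hosts were found in 10 of 12 proNeu-1 cells (83.3%), 25 of 31 IG2 cells (80.6%), 14 of 27 cells without a state (51.9%) and 14 of 26 Multi-Lin-1 cells (53.8%). No proNeu-1 or IG2 cell had Gas5 alone, against 5 cells without a state and 3 Multi-Lin-1 cells. Median numbers of genes detected were also higher in proNeu-1 (4127.5) and IG2 (3940) than without a state (2613) and in Multi-Lin-1 (2950). The part of this general difference in detection in the counts of hosts was not tested.

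**Figure D2:**
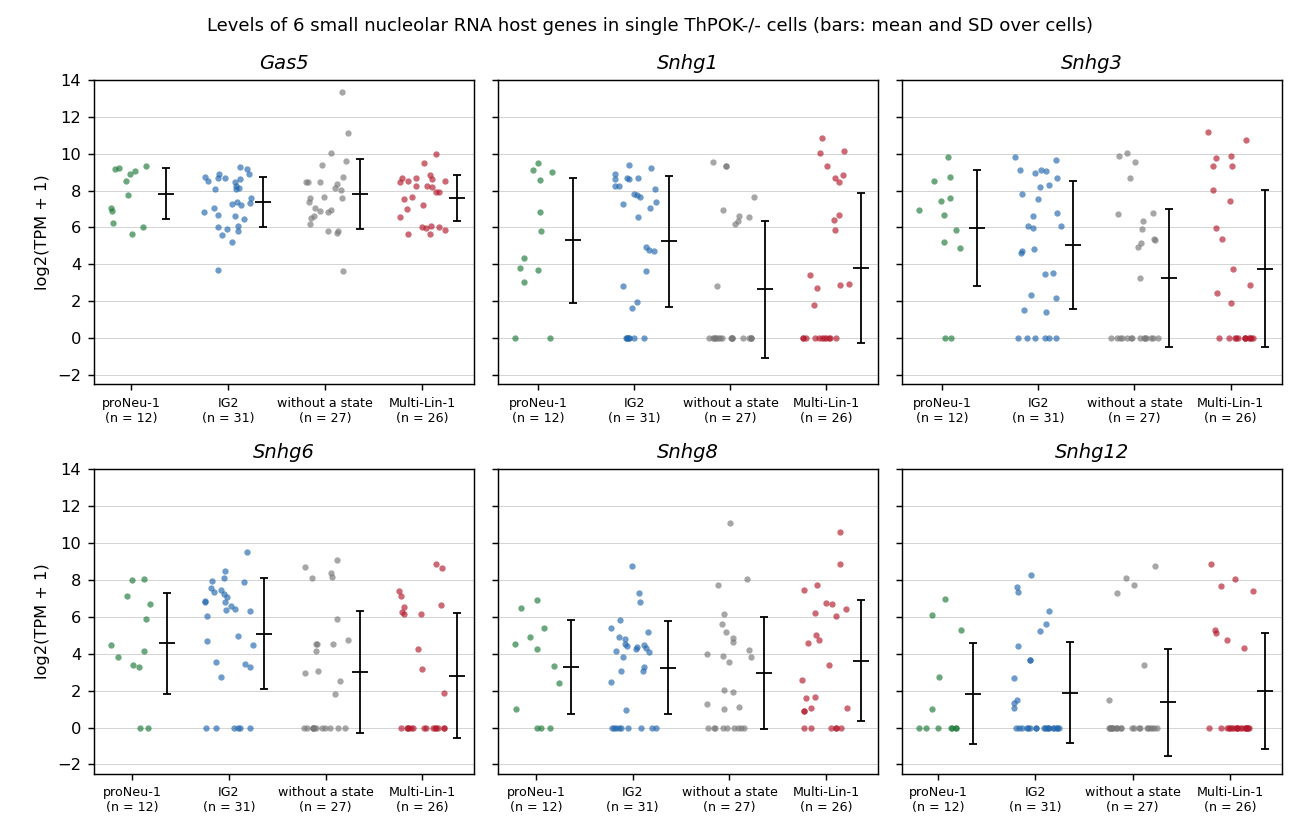
Each point is 1 cell, the y axis is the level as log2(TPM + 1), the x axis the state, and the black bar beside each group is the mean with its SD over cells. Gas5 forms 1 band with no cell at 0, whereas the other 5 genes split into cells at 0 and cells at a wide range of levels, in every state.

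Mean log2 levels of Snhg1, Snhg3 and Snhg6 were higher in IG2 than in Multi-Lin-1 by at least 1, the size set for a call, and differences for Gas5, Snhg8 and Snhg12 were below that size. No test was made, and the difference for Snhg1 reverses in cells with more genes detected, as given further on. Between IG2 and Multi-Lin-1, 3 of 6 hosts were higher by that size and 0 lower, where 31.1% of the 8044 genes detected in at least 10% of cells were higher and 2.54% lower. The median of all these genes was itself 0.53 higher in IG2. The members are therefore set against a table that moves as a whole between these states.

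Snhg6, host of Snord87, showed the widest of these differences. Its lowest, median and highest levels were 0.00, 4.30 and 8.06 in proNeu-1, 0.00, 6.39 and 9.53 in IG2, 0.00, 2.54 and 9.10 in cells without a state, and 0.00, 0.00 and 8.87 in Multi-Lin-1. The ranges of the 4 states overlap, and each includes cells at 0. Means were 5.09 ± 2.99 in IG2 and 2.81 ± 3.38 in Multi-Lin-1, a difference of 2.29 at percentile 93.7 of all genes. It was detected in 25 of 31 IG2 cells (80.6%, interval 62.5% to 92.5%) and 12 of 26 Multi-Lin-1 cells (46.2%, 26.6% to 66.6%).

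Snhg1, whose guests include Snord22, had lowest, median and highest levels of 0.00, 5.07 and 9.48 in proNeu-1, 0.00, 7.07 and 9.37 in IG2, 0.00, 0.00 and 9.56 in cells without a state, and 0.00, 2.80 and 10.82 in Multi-Lin-1. The highest single cell was thus a Multi-Lin-1 cell, although its mean was lower. Means were 5.25 ± 3.54 in IG2 and 3.81 ± 4.07 in Multi-Lin-1, a difference of 1.44 at percentile 81.2. Detection was in 24 of 31 IG2 cells (77.4%, interval 58.9% to 90.4%) and 15 of 26 Multi-Lin-1 cells (57.7%, 36.9% to 76.6%).

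Snhg3, host of the U17 pair that acts in cleavage of the ribosomal RNA precursor, had lowest, median and highest levels of 0.00, 6.81 and 9.84 in proNeu-1, 0.00, 5.98 and 9.82 in IG2, 0.00, 0.00 and 10.02 in cells without a state, and 0.00, 2.18 and 11.18 in Multi-Lin-1. As for Snhg1, the top cell lay in Multi-Lin-1. Means were 5.04 ± 3.48 in IG2 and 3.77 ± 4.26 in Multi-Lin-1, a difference of 1.27 at percentile 77.3, with detection in 25 of 31 IG2 cells and 14 of 26 Multi-Lin-1 cells (53.8%, interval 33.4% to 73.4%). Snhg3 overlaps the annotated span of the protein-coding gene Rcc1 on the same strand over 5592 of its 5673 bases, so reads in shared parts could be given to either, and Rcc1 was detected in 31 cells.

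Gas5 showed no such split. Its lowest, median and highest levels were 5.66, 8.13 and 9.33 in proNeu-1, 3.68, 7.38 and 9.29 in IG2, 3.64, 7.60 and 13.33 in cells without a state, and 5.65, 7.92 and 9.998 in Multi-Lin-1. Means were 7.82 ± 1.38, 7.40 ± 1.35, 7.79 ± 1.90 and 7.60 ± 1.27 in that order of states, all within 1 SD of each other. The difference of IG2 minus Multi-Lin-1 was -0.20, and relative to the median shift of all genes it was -0.73. The highest cell, which is without a state and numbered 079 (a number in the cell names, 078 or 079, whose meaning is not given), stood alone at a TPM of 10294, with 1019 genes detected and 0 other hosts. It took the mean Gas5 TPM of cells without a state to 705, against 337 without that cell.

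Snhg8, host of Snora24, averaged 3.23 ± 2.51 in IG2 and 3.62 ± 3.27 in Multi-Lin-1, a difference of -0.39, and was detected in 21 of 31 and 18 of 26 cells of those states. The sign of that difference is not stable, at -1.74 in cells numbered 078 and 0.67 in cells numbered 079, and at 1.13 between medians. Snhg12 averaged 1.89 ± 2.75 in IG2 and 1.98 ± 3.17 in Multi-Lin-1, a difference of -0.09, with detection in 13 and 8 cells. By mean differences Snhg8 and Snhg12 stood at percentiles 11.2 and 21.4 of all genes. The Snhg12 difference also turned positive in cells numbered 079, at 0.37.

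**Figure D3:**
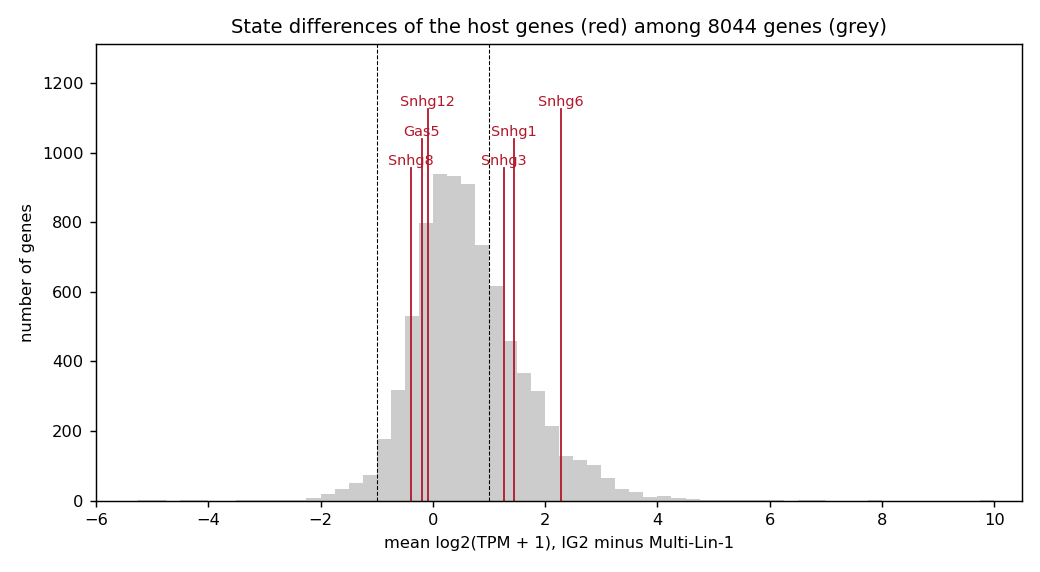
The grey bars count the 8044 genes detected in at least 10% of cells by their difference in mean log2(TPM + 1), IG2 minus Multi-Lin-1, on the x axis, the red lines are the 6 hosts, and the dashed lines mark a difference of 1 in either direction. Snhg3, Snhg1 and Snhg6 lie right of the dashed line, between 1.27 and 2.29, while Snhg8, Gas5 and Snhg12 lie between -0.39 and -0.09, left of the peak of all genes.

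Between proNeu-1 and Multi-Lin-1 the same 3 hosts were higher, Snhg3 by 2.20, Snhg6 by 1.76 and Snhg1 by 1.5, where 35.2% of all genes were higher and 5.0% lower. The proNeu-1 means were 5.97 ± 3.14 for Snhg3, 4.57 ± 2.73 for Snhg6 and 5.31 ± 3.39 for Snhg1. Because this comparison shares its Multi-Lin-1 cells with the one before, the pair are not independent. Between proNeu-1 and IG2, 0 of 6 hosts differed by 1, where 13.6% of genes were higher and 10.2% lower, and Snhg3 came closest at 0.93. Between cells without a state and Multi-Lin-1, Snhg1 was lower by that size, at 2.64 ± 3.71 in cells without a state and 3.81 ± 4.07 in Multi-Lin-1 (difference -1.16), where 12% of genes were lower and 5.21% higher.

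Levels were also averaged over detecting cells alone, which are few in some states. Snhg6 averaged 6.32 in detecting IG2 cells and 6.08 in detecting Multi-Lin-1 cells, and Snhg1 averaged 6.78 and 6.60. Snhg3 averaged 6.25 in detecting IG2 cells and 7.0 in detecting Multi-Lin-1 cells. Snhg12 averaged 4.51 in 13 detecting IG2 cells and 6.44 in 8 detecting Multi-Lin-1 cells, a difference of -1.92 where that over all cells was -0.09.

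Levels also moved with the number of genes detected. Spearman's rho between a host's level and the number of genes in the cell was 0.52 for Snhg1, 0.46 for Snhg6, 0.42 for Snhg3, 0.29 for Snhg12, 0.19 for Gas5 and 0.04 for Snhg8 over 96 cells, where the median of 5719 genes was 0.26. The 3 hosts with the highest rho are those that differed between states, and IG2 cells had more genes detected than Multi-Lin-1 cells. In cells with at least 2500 genes, which left all 12 proNeu-1 and 31 IG2 cells, 15 without a state and 17 Multi-Lin-1 cells, Snhg1 averaged 5.25 in IG2 and 5.56 in Multi-Lin-1, so its difference changed sign to -0.31. Among these deeper cells Snhg3 averaged 5.04 in IG2 and 3.35 in Multi-Lin-1, and Snhg6 averaged 5.09 and 3.63, with medians of 3940 and 3342 genes. The part of depth, and of the granule transcripts that take up more of the TPM in IG2 and proNeu-1, in these differences was not tested.

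**Figure D4:**
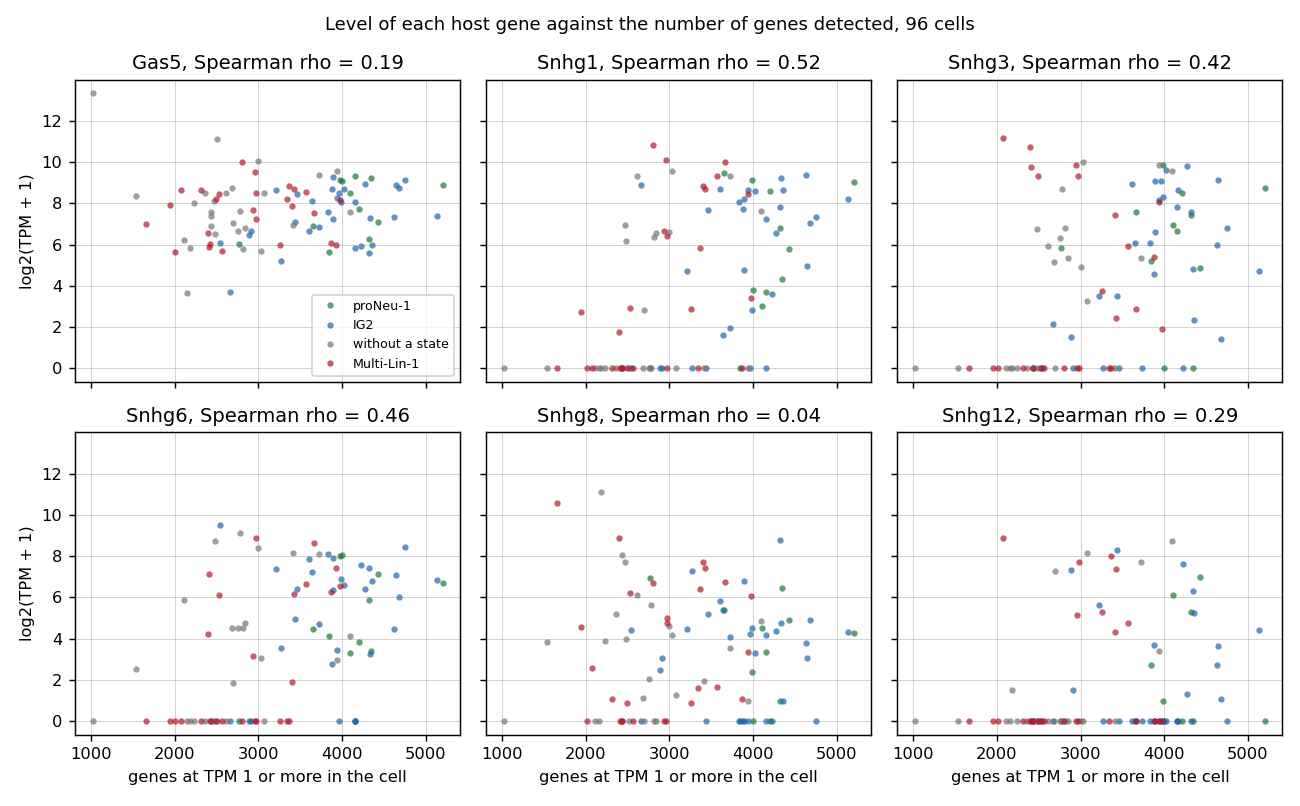
Each point is 1 cell, with the number of genes reaching a TPM of 1 on the x axis, the level of the host as log2(TPM + 1) on the y axis, colour for the state, and Spearman's rho over 96 cells above each panel. Cells at 0 for Snhg1, Snhg3 and Snhg6 gather at low gene numbers, while Gas5 and Snhg8 change little along the axis.

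Levels of the hosts were weakly related to each other. Over the 15 pairs Spearman's rho had a median of 0.106 and ran from -0.0224 for Snhg6 with Snhg12 to 0.374 for Snhg1 with Snhg6. The next were Snhg3 with Snhg6 at 0.353 and Snhg1 with Snhg3 at 0.347, so the 3 highest pairs join the hosts that also follow gene number. With the number of genes detected regressed out of the ranks, those pairs fell to 0.173, 0.196 and 0.166. The median over pairs was -0.0228 in cells numbered 078 and 0.269 in cells numbered 079. Median rho with the other hosts was 0.193 for Snhg1, 0.0983 for Gas5 and 0.0983 for Snhg8, above that with all genes (0.130, 0.0347 and 0.0182). For Snhg6, Snhg3 and Snhg12 it was 0.106, 0.0639 and 0.0260, below that with all genes (0.120, 0.110 and 0.0706). All cells share 1 chip protocol and differ in depth, and with so many 0 values weak correlations carry little.

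The genes whose levels followed each host most closely across 96 cells, among 5718 others detected in at least 20% of cells, differed from host to host. They were Pelp1, Ppp2r1b and Dtd1 for Gas5 (rho 0.403, 0.388 and 0.382), and Psat1, 2210013O21Rik and Manf for Snhg1 (0.501, 0.458 and 0.453). For Snhg3 they were Eif3b, a subunit of translation initiation factor 3, with 1110001J03Rik and Vdac2 (0.530, 0.496 and 0.481), and for Snhg6 Gusb, Ndufb2 and Slc16a1 (0.526, 0.486 and 0.484). For Snhg8 they were Brd7, Vps36 and Dcp2, a decapping enzyme (0.388, 0.358 and 0.356), and for Snhg12 Fam195b, Jarid2 and Sbds, a ribosome maturation factor (0.437, 0.395 and 0.389). With the number of genes detected regressed out, these 18 values ran from 0.275 to 0.407. Within IG2 cells alone they ran from 0.0340 for Snhg6 with Ndufb2 to 0.646 for Snhg1 with Psat1. Picking the highest of 5718 values in the same cells favours high values, and none was tested. None of the hosts was among the closest 3 of another.

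Ribosomal protein genes went both ways with Snhg1 and Snhg6. The median rho over 80 of them was 0.00122 with Snhg1 and -0.000106 with Snhg6, with 40 positive for each host, where the medians over all genes were 0.130 and 0.120. The lowest rho of all 5718 genes was that of Rpl17 with Snhg1 (-0.323) and of Rps9 with Snhg6 (-0.379), both ribosomal protein genes named after their values were seen. With Snhg8 the order was the other way, 0.136 over ribosomal protein genes and 0.0182 over all genes, and 73 of 80 were positive. For Gas5 the median was 0.0536 over ribosomal protein genes and 0.0347 over all genes.

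The other genes of the pathway were taken from lists. Like the hosts described, the lists were chosen with earlier results of these data known, so differences between their shares may reflect that choice. Of 8 further noncoding hosts analysed here, 1 was detected in at least 50% of cells, Snhg5 in 79. Over all 23955 genes, 9.48% reached that share. Protein-coding hosts reached that share for 13 of 13 genes, with Eef2, Eif4a1 and Gnb2l1 in all 96 cells, and so did 16 of 16 genes outside the ribosomal proteins that are known for a start-site pyrimidine tract and 80 of 84 ribosomal protein genes. Genes of the small nucleolar ribonucleoprotein, which bind and stabilise the guide RNA, reached it for 10 of 18, led by Nop10 (90 cells), Dkc1 (85), the pseudouridine synthase of H/ACA particles, and Nop58 (82), a core protein of C/D particles. Dkc1, Nop56 and Nop58 are themselves hosts and stand in both lists, as 4 tract-bearing genes also stand among the protein-coding hosts. Nonsense-mediated decay genes reached it for 7 of 15, with Upf1, the central helicase of that pathway, in 78 cells. Genes of ribosomal RNA synthesis and ribosome assembly reached it for 10 of 22, with Ncl in 95 cells and Npm1 in 94.

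The lists were also compared between IG2 and Multi-Lin-1, where 31.1% of all genes were higher by at least 1 and 2.54% lower. Small nucleolar ribonucleoprotein genes were higher by at least 1 in IG2 for 13 of 18, with a median difference of 1.47 where that of all genes was 0.53, and Nop58 averaged 6.93 in IG2 and 5.04 in Multi-Lin-1. Ribosomal RNA synthesis and assembly genes were higher for 10 of 22 (median 0.95), protein-coding hosts for 4 of 13 (median 0.88), nonsense-mediated decay genes for 2 of 14 (median 0.42) and other tract-bearing genes for 3 of 16 (median 0.42). Ribosomal protein genes were higher for 3 of 81, with a median of -0.07. The other noncoding hosts were higher for 1 of 6, with a median of 0.08. Of the 6 hosts described here 3 were higher, with a median of 0.59. No gene of these lists was lower by 1, against the 2.54% of all genes. Between proNeu-1 and Multi-Lin-1 the ribonucleoprotein genes were higher for 10 of 18 and the assembly genes for 12 of 22, where 35.2% of all genes were.

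The guest RNAs that could be matched were almost never seen. Of the 25 annotated inside the 6 hosts, 8 were matched in the expression table, and 4 of these reached a TPM of 1 in any cell. Matching was by GENCODE name alone, so guests listed under another name would be missed. Nothing is said here of the unmatched ones. Snord22, inside Snhg1, did so in 6 cells, all of which also held Snhg1, Snora44 in 3 cells, of which 2 held its host Snhg12, and Snord47 and Snora16a in 1 cell each. Snord87 was under the threshold in all 96 cells, while its host Snhg6 was found in 62. Of 105 small nucleolar RNA genes listed in all, 72 were never detected, and Snora31 was the most frequent at 33.3% of cells. Per the labels the cDNA was made with a kit for mRNA, and mature small nucleolar RNAs carry no poly(A) tail. The part of this in the low counts of guests was not tested.

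Splicing was measured as PSI (percent spliced in, given as a fraction from 0 to 1 of the reads at a junction's alternatives). Of the 23 events, 13 belong to Gas5, 6 to Snhg6, 2 each to Snhg3 and Snhg12, and 0 to Snhg1 and Snhg8. Gas5 events had values in 95 or 96 of 96 cells. Only 68 of 80855 events had values in at least 95 cells, and those 13 were the largest number from any of the 19 genes among them, followed by 8 from Rps15. Junction reads behind a PSI value are not given, so its precision in 1 cell is unknown.

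Gas5 PSI values were often intermediate. Between 0 and 1 lay 67.8% of its values, against 24.1% of values in the other events of that set and 6.34% over the whole table. Events of Gas5 share junctions, so these values are not independent of each other. By comparison 9.76% of Snhg3 values, 8.33% of Snhg6 values and 0.0% of Snhg12 values were intermediate. Gas5 is also the host with the highest TPM, and the part of level in these shares was not tested.

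Of the Gas5 exons, 2 short ones with junctions into, out of and past them are called A and B here. Exon A has 37 bases (chr1:161036208-161036244) and exon B has 41 (chr1:161037124-161037164). They are shown in capitals with 20 bases of the exons before and after them in an annotated transcript, and Snord78, the guest in the intron before exon B, is shown with the letters TGATG and CTGA in capitals, parts of the C and D boxes that name its class.
Gas5 exon A: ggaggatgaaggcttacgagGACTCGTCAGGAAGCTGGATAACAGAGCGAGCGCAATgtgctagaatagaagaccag
Gas5 exon B: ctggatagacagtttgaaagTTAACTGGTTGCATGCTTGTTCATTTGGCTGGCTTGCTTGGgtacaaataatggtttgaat
Snord78 (chr1:161036984-161037049, plus strand): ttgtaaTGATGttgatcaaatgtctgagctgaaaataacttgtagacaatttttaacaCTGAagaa
Over 1507 annotated small nucleolar RNA transcripts, 35.9% held TGATG, 79.5% held CTGA and 30.3% held both in that order, on the sense strand.

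Exon B was included in part in nearly every cell. The junction into it had a mean PSI of 0.530 ± 0.255 and the junction out of it 0.568 ± 0.247, while the junction that skips it had 0.211 ± 0.163, each over 96 cells. The junction into exon B had lowest, median and highest values of 0.129, 0.508 and 1 in proNeu-1, 0.180, 0.467 and 1 in IG2, 0.00, 0.596 and 1 in cells without a state, and 0.00, 0.575 and 0.906 in Multi-Lin-1. Values were thus spread over most of the range in every state, and the states overlapped. PSI values lay strictly between 0 and 1 in 90 cells for inclusion and in 89 for skipping. In GENCODE, 2 of 25 Gas5 transcripts contain exon B and 7 join its neighbours directly. The values for the junction out of exon B and for skipping added to a median of 0.816 per cell.

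Exon A was mostly included. The junction into it had a mean PSI of 0.926 ± 0.123 (95 cells), the junction out of it 0.671 ± 0.283 (96 cells), and the junction that skips it 0.0456 ± 0.106 (96 cells), with 43 cells at 0 for skipping. In 1 cell without a state the skipping value reached 0.852. GENCODE lists 9 transcripts with exon A and 0 that join its neighbours directly, whereas 53 cells had a skipping value above 0.

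**Figure D5:**
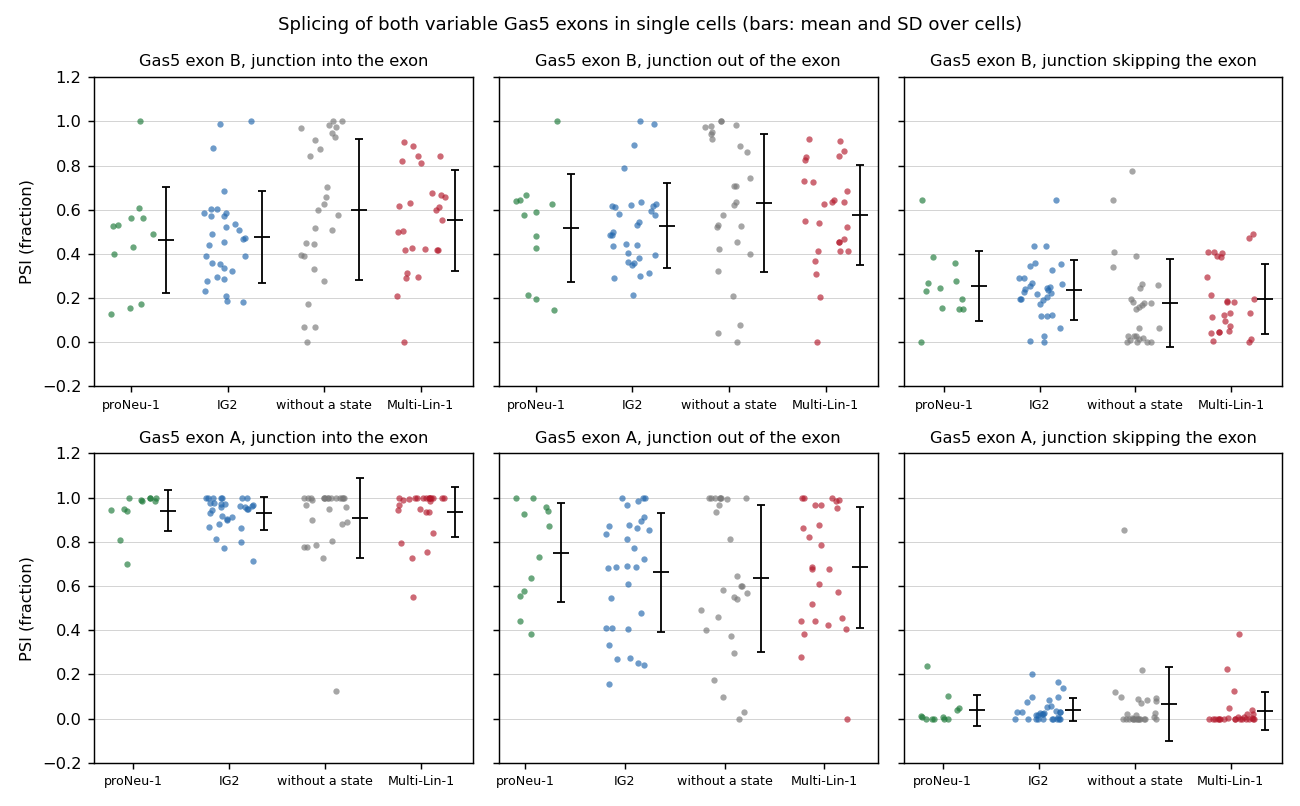
Each point is 1 cell, the y axis is PSI as a fraction, the x axis the state, and the black bar beside each group is the mean with its SD over cells, for exon B (top) and exon A (bottom). Inclusion of exon B fills the range around means of 0.464 to 0.601 in every state, while the junction into exon A sits near 1 and skipping of exon A near 0.

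Each examined Gas5 intron that holds a guest holds 1. Of the 11 spliced Gas5 junctions examined, 9 span 1 small nucleolar RNA gene, 2 span none and 0 span more, covering 7 different guests. A long junction from exon A, against which some of these are set, spans 5 guests. The junctions into exon B and past it both span Snord78, and the junctions into exon A and past it both span Gm22357, so either choice removes an intron with the same guest. The junctions out of both exons span none.

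Retention of the intron that holds Gm26224 (chr1:161035195-161035751) was rare. The reads across its 5′ and 3′ ends gave mean PSI values of 0.0238 ± 0.0627 and 0.0172 ± 0.0415 over 95 cells, and the spliced junction 0.949 ± 0.111. At the 5′ end, 6 of 12 proNeu-1 cells were at 0, 25 of 31 in IG2, 23 of 27 without a state and 22 of 25 in Multi-Lin-1. The spliced junction had means of 0.849 ± 0.201 in proNeu-1 cells and 0.983 ± 0.0374 in Multi-Lin-1 cells, a difference of -0.134, and 1 proNeu-1 cell was as low as 0.365. Retention values at the 5′ and 3′ ends rose with the Gas5 level, with rho of 0.471 and 0.464 over 95 cells. They also rose with the number of genes detected, with rho of 0.322 and 0.346, and proNeu-1 cells had the highest median of that number. The part of level and depth in these values was not tested.

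The other 4 Gas5 junctions, set against 1 long junction from exon A to the next-to-last exon of the transcript with most exons, had means of 0.826 ± 0.216, 0.861 ± 0.167, 0.894 ± 0.152 and 0.901 ± 0.137, for the introns of Gm23212, Mir5117, Snord80 and Snord47. Their SD was larger in cells below the median Gas5 level than above it, for instance 0.196 below and 0.0764 above for the intron of Snord80.

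In the other hosts with events, intermediate PSI values were fewer. In Snhg3 the donor that lengthens the exon by 43 bases had a mean PSI of 0.0772 ± 0.241 over 41 cells and was at 0 in 36 of them. The intron after it holds Snora73b with either donor. The 43 bases are shown in capitals.
Snhg3 longer donor (chr4:132352620-132352662, minus strand): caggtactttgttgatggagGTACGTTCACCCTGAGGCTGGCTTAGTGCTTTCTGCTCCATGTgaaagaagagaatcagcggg

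In Snhg6, 2 acceptors 6 bases apart were used, with a mean of 0.833 ± 0.345 for the one that keeps the 6 bases and 0.167 ± 0.345 for the one that leaves them out, over 36 cells, and 7 cells held both. The 6 bases are in capitals, between the exons they join.
Snhg6 nearer acceptor (chr1:9942150-9942155, minus strand): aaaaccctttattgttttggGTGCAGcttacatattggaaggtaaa

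Of the first Snhg6 intron, 4 junctions sharing 1 end were listed. The longest had a mean of 0.941 ± 0.229 over 33 cells, another had 0.0320 ± 0.174, and 2 were at 0 in all 33 cells. In Snhg12 all 14 cells with a value had 1 for the upstream donor of its first intron and 0 for the donor 34 bases downstream. Snhg6 overlaps Mcmdc2 on the opposite strand by 127 bases, and the 23 events' ends matched GENCODE exon ends for 81 of 92 positions, the rest being retention ends, a position 1 base from the start of the next-to-last Gas5 exon, and sites inside the first Snhg6 intron.

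Mean PSI was then compared between states. With at least 5 cells per state and a difference of at least 0.2 in mean PSI as the size for a call, 0 of 21 host events differed between IG2 and Multi-Lin-1, where 4.1% of 16464 events did, and the largest difference was 0.111. Between proNeu-1 and IG2 0 of 17 did (3.43% of all events), and between cells without a state and Multi-Lin-1 0 of 17 (4.79%). Over so few events a count of 0 is near the background share. Gas5 events differed by at most 0.119 between proNeu-1 and IG2, 0.0750 between IG2 and Multi-Lin-1, 0.134 between proNeu-1 and Multi-Lin-1 and 0.0535 between cells without a state and Multi-Lin-1.

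Only between proNeu-1 and Multi-Lin-1 did host events reach that size, 4 of 17 where 4.04% of all events did, and they are the 2 mirrored pairs of Snhg3 and Snhg6. The longer Snhg3 donor averaged 0.214 in 7 proNeu-1 cells and 0.00 in 8 Multi-Lin-1 cells, with 4 proNeu-1 cells also at 0. The Snhg6 acceptor that leaves out the 6 bases averaged 0.00 in 5 proNeu-1 cells and 0.228 in 9 Multi-Lin-1 cells, of which 6 were at 0. With at least 8 cells required per state these events have too few proNeu-1 cells, and of the 13 that can then be compared 0 were called.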

How the data were processed

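Expression of 96 single ThPOK-/- cells was deposited by the authors as log2 values. Taken as log2(TPM + 1), they sum to 1000000 TPM per cell. Splicing values are fractions that the authors deposited, from 0 to 1. State names were deposited for 69 of these cells. Per the submitters' processing notes Bowtie2, RSEM and STAR and the builds mm9 and mm10 were used, with no version or role. The 1142 splicing columns and 511 state entries of cells that no label maps were not used here, and wild-type cells were not analysed. Depth is unknown, as neither table keeps read counts, and intervals cover counting error only. Doublets were not called, for lack of counts.

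Members and gene lists were chosen with earlier results of these data known. A gene was detected at a TPM of 1, a state difference called at 1 on the log2 scale among genes in 10% of cells, correlations used genes in 20% of cells, and PSI differences needed 5 cells per state and a size of 0.2. Named genes were the 6 hosts, their events, the 3 most detected genes of a list and the 3 with the highest rho per host. Some genes are in more than 1 list. Scripts were run in Python 3.11.15 with SciPy 1.17.1, NumPy 2.4.6, pandas 2.3.3 and matplotlib 3.10.9. Only the arithmetic of state differences and of correlation ranks was checked, on expression values shuffled over cells with known changes added. The splicing and annotation steps were not part of that check. Alternatives are given after the results.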

Additional observations from a re-analysis of the deposited data

How the results depend on the processing

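No test was made, so the limits are of size. The 5 hosts detected in at least 50% of cells were 1 at a TPM of 30, as were 4 of 15 nonsense-mediated decay genes (main 7) and 6 of 22 ribosome assembly genes (main 10). Hosts higher by 1 numbered 1 in IG2 against Multi-Lin-1 with a pseudocount of 10 (main 3), where 11.8% of all genes were higher (main 31.1%). In proNeu-1 against Multi-Lin-1 (main 3 and 35.2%) they numbered 1 with that pseudocount, where 16.1% of genes were higher. They also numbered 1 there in cells with at least 2500 genes, where 28.9% of genes were higher. In those deeper cells Snhg1 reversed, to -0.31 for IG2 and -0.25 for proNeu-1 against Multi-Lin-1, and Snhg3 in cells without a state against Multi-Lin-1 was 2.07 (main -0.51). In proNeu-1 against IG2 (main 0), 1 host was higher with a pseudocount of 0.1 (23.2% of all genes) and 1 in cells numbered 079 (24.1%). In the same comparison 1 was lower in cells numbered 079 (13.6% of all genes) and 2 by medians (8.83%). Hosts lower in cells numbered 078 were 1 in IG2 (6.65% of all genes) and 2 in proNeu-1 (12.9%) against Multi-Lin-1 (main 0 each). In cells without a state against Multi-Lin-1, hosts higher (main 0) were 1 in deeper cells and 1 by medians, and hosts lower (main 1) were 0 with a pseudocount of 10, 4 in cells numbered 078, 0 in cells numbered 079, 2 in deeper cells and 2 by medians. For this comparison only the main shares of all genes are given here, 5.21% higher and 12% lower. These counts are not read as results about the hosts. The median rho of pairs was 0.269 in cells numbered 079 (main 0.106). Called splicing events in proNeu-1 against Multi-Lin-1 (main 4) were 1 in cells numbered 078, 0 in those numbered 079, 2 in cells with the gene at a TPM of 30 and 0 with 8 cells per state, which removes those 4 events. With a size of 0.1, called events were 5 in proNeu-1 against IG2, 3 in IG2 against Multi-Lin-1 and 2 for stateless cells against Multi-Lin-1, each 0 at 0.2, and in the last, 2 were called in cells with the gene at a TPM of 30. The share of all events was not computed at these settings, so the counts of events are not set against it. All 69 alternative means of PSI stayed within 1 SD over cells. Of 168 state differences of single hosts, 2 that were called reversed in sign and 1 moved by more than the SD of the first state. The other 165 moved by less than that SD. It is wide, so the change of Snhg3 from -0.51 to 2.07 counts among them, and this limit does not show that the differences are stable. Rescaling by the median of common genes left every count of hosts within 1.5 times. Without a filter on low genes the share of all genes higher moved by more than 1.5 times in all 4 comparisons. The causes were not tested. No paired analysis was possible because the cells form 1 group.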

Other observations

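Cell names carry a number, 078 or 079, of unstated meaning, with 48 cells each. Gas5 was detected in all 48 of both, Snhg1 in 30 and 29, Snhg6 in 32 and 30, Snhg8 in 34 and 30, Snhg12 in 13 and 18, and Snhg3 in 35 and 27. The junction out of Gas5 exon A averaged 0.739 ± 0.232 in cells numbered 078 and 0.604 ± 0.314 in those numbered 079, a difference smaller than either SD. Mcmdc2, which overlaps Snhg6 on the opposite strand, was detected in 64 cells, and Zbtb37, which overlaps the 5′ part of the Gas5 locus on the opposite strand, in 2.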
